A study of Bos taurus with 30 samples.

Results

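The miR-148 and miR-152 family was described in 30 Holstein-Friesian bull calves. The tissue was the anterior lobe of the pituitary, which makes growth hormone, prolactin, the gonadotrophins and other hormones. The members were taken by name as bta-miR-148a, bta-miR-148b and bta-miR-152, which are 3 of the 1030 mature miRNAs in the table. All 3 of the 3 members were among the 419 miRNAs with enough reads for the diet comparison. The study compared a high (HI) with a moderate (MOD) plane of nutrition, with 15 calves per diet and 1 small RNA library per calf. From week 2 to week 12 of life, HI calves were offered 1.5 kg of milk replacer in 10 L per day and concentrate without limit. MOD calves were offered 0.5 kg of milk replacer in 4 L per day and at most 0.5 kg of concentrate. The calves came from several farms and sires, and the labels do not say which calf came from where.

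A microRNA is a short RNA that guides a silencing complex to messenger RNAs, mainly through its seed, the stretch near its 5′ end that pairs with the target. miR-148a, miR-148b and miR-152 are grouped as a family because they share a seed, and so share many predicted targets. The best known is DNMT1, the enzyme that maintains DNA methylation when cells divide. miR-148a is also known to act on ABCA1, which exports cholesterol from cells. Their mature sequences and the seed match itself were not analysed here.

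The 3 members come from separate genes. RefSeq's gene table for ARS-UCD2.0, which is not the build of the study, was used for neighbouring genes only. In it MIR148A is on chromosome 4 and lies in no other gene. MIR148B, on chromosome 5, lies within COPZ1, and MIR152, on chromosome 19, lies within COPZ2. COPZ1 and COPZ2 encode alternative zeta subunits of the coatomer, the coat of vesicles that move between the Golgi apparatus and the endoplasmic reticulum. The same annotation places MIR148D within MIR148A and MIR148C within MIR152. The miRNAs of these overlapping genes had almost no reads. miR-148c had 14 reads over the 30 libraries, in 11 of them, with at most 2 reads (0.261 CPM) in a library. miR-148d had 1 read in 1 library (0.113 CPM). Both stayed under 3 reads in every library, the limit that a count of 0 allows, so neither could be measured at this depth.

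Levels are given in CPM, counts per 1e+06 reads on miRNAs, scaled by TMM factors that correct library totals for differences in composition. HI libraries held 6650492 to 11086524 miRNA reads and MOD libraries 7685030 to 9916490, and 3 reads were worth 0.266 to 0.419 CPM. A few libraries stood apart from the rest. HI replicate 15 had a TMM factor of 1.21, whereas the others lay between 0.917 and 1.15. HI replicate 1 had 181565 CPM of miR-143, a miRNA of smooth muscle and fibroblasts, and no other library exceeded 80613 CPM. The 9 libraries with the highest calf numbers in their labels (5 HI and 4 MOD) had 6407 to 9694 CPM of miR-99b, against 4116 to 5185 CPM in the other 21. These sets were defined after the values of other miRNAs had been seen, and the labels do not say what the numbers stand for. As a check of the tissue, the defining pituitary endocrine miRNAs miR-375 and miR-7 averaged 146057 and 17064 CPM. The muscle miRNAs miR-1 and miR-206 were at most 0.107 and 0.112 CPM, and the liver miRNA miR-122 at most 0.209 CPM. Other striated muscle miRNAs were present, with miR-133a at a mean of 13.2 CPM (at most 77.3) and miR-133b at 1.77 CPM (at most 8.43).

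miR-148a was one of the main miRNAs of this tissue. Its mean of 93569 CPM was the second highest in the table and made up 9.34% of all CPM. It followed miR-375 (146057 CPM), which is typical of endocrine cells, and preceded miR-26a (59823 CPM), miR-411a (52273 CPM) and miR-143 (48968 CPM). It ranked second in 28 of the 30 libraries. It ranked first in MOD replicate 14, and in HI replicate 1, the library with the high miR-143, it ranked below second. Its part of a library ranged from 6.67% to 12.1% of the reads.

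The other members were far less abundant. miR-148b averaged 1557 CPM, rank 57, with ranks from 52 to 63 in single libraries. miR-152 averaged 531 CPM, rank 89, with ranks from 82 to 106. The order miR-148a, miR-148b, miR-152 held in 30 of 30 libraries, and the ranges of the 3 members did not overlap. Small RNA libraries do not capture all miRNAs with equal efficiency, so this is an order of reads and not a calibrated order of molecules. Of the family's CPM, miR-148a took 97.8% on average (96.0% to 98.2%), miR-148b 1.67% and miR-152 0.561%. The family's sum was therefore close to the level of miR-148a. It had a median of 92968 CPM in HI calves (57540 to 125602) and of 98243 CPM in MOD calves (76694 to 119388).

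**Figure D1:**
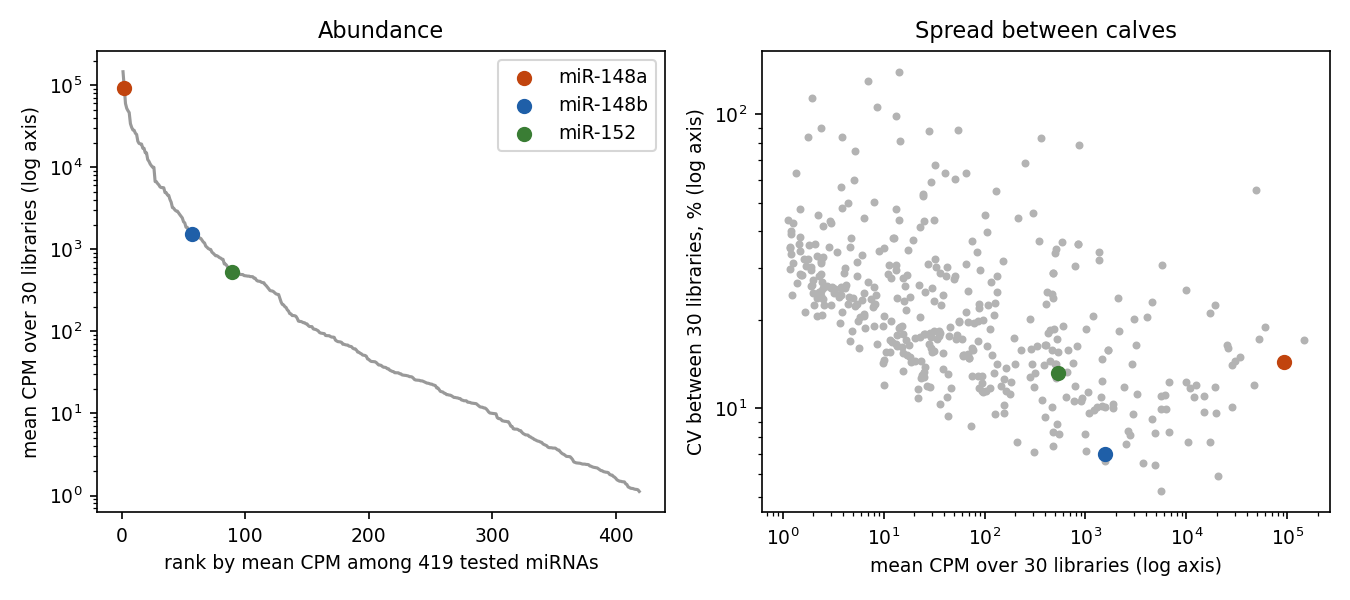
Left, mean CPM over 30 libraries (log axis) against rank for the 419 tested miRNAs, with the family in colour. Right, the coefficient of variation between the 30 libraries (log axis) against mean CPM (log axis). miR-148a is second by mean CPM, and miR-148b, at 7.02%, lies near the lower edge of the variation of all miRNAs.

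The members also differed in how much they varied between calves. On the TMM scale miR-148b was among the steadiest miRNAs measured. Its coefficient of variation over the 30 libraries was 7.02%, the sixth lowest of 419, against a median of 19.8%. Among the 95 tested miRNAs above 500 CPM, whose median was 12.0%, it was again the sixth lowest. miR-152 varied by 13.2% and miR-148a by 14.4%, which placed them 93rd and 113th from the lowest of the 419. This contrast depended on the scale. With total reads in place of TMM, miR-148b varied by 10.9% (37th of 419), miR-148a by 13% (82nd) and miR-152 by 13.1% (83rd). Counting error was small beside this spread. The lowest read counts in a library were 529847 for miR-148a, 9553 for miR-148b and 3033 for miR-152, which give counting errors of 0.137%, 1.02% and 1.82%.

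The comparison of HI with MOD calves addressed whether early nutrition changed the family's level in the pituitary. No member passed the test for a difference between diets. The fitted folds, HI over MOD, were 0.909 for miR-148a, 0.979 for miR-148b and 0.921 for miR-152. In these whole-tissue samples, fewer cells of a type and less RNA per cell cannot be told apart.

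miR-148a in HI calves ran from 55252 CPM (HI replicate 15) through a median of 90921 to 123395 CPM (HI replicate 3). In MOD calves it ran from 74626 CPM (MOD replicate 7) through 96036 to 117137 CPM (MOD replicate 14). The diets overlapped widely, with 11 of 15 HI calves below the MOD median and 4 above it, 2 HI calves below every MOD calf and 1 above every MOD calf. The means were 89502 ± 15152 CPM (SD, n = 15) in HI and 97635 ± 10569 CPM (SD, n = 15) in MOD calves. On the log2(CPM + 1) scale HI minus MOD was -0.14 (SE 0.077; limma, FDR = 0.529), a fold of 0.909 with a 95% interval of 0.815 to 1.01.

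miR-148b in HI calves ran from 1334 CPM (HI replicate 10) through a median of 1572 to 1818 CPM (HI replicate 15). In MOD calves it ran from 1430 through 1552 to 1713 CPM. HI calves lay on both sides of the MOD median, 8 above and 7 below. The means were 1541 ± 126 CPM (SD, n = 15) and 1572 ± 91.1 CPM (SD, n = 15). HI minus MOD was -0.03 (log2, SE 0.041; limma, FDR = 0.873), a fold of 0.979 with an interval of 0.924 to 1.04.

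miR-152 in HI calves ran from 417 CPM (HI replicate 6) through a median of 500 to 617 CPM (HI replicate 11). In MOD calves it ran from 473 CPM (MOD replicate 5) through 537 to 704 CPM (MOD replicate 6). As with miR-148a, 11 of 15 HI calves lay below the MOD median, and here 5 lay below every MOD calf while 2 MOD calves lay above every HI calf. The means were 509 ± 60.7 CPM (SD, n = 15) and 554 ± 73.5 CPM (SD, n = 15). HI minus MOD was -0.12 (log2, SE 0.065; limma, FDR = 0.525), a fold of 0.921 with an interval of 0.840 to 1.01.

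**Figure D2:**
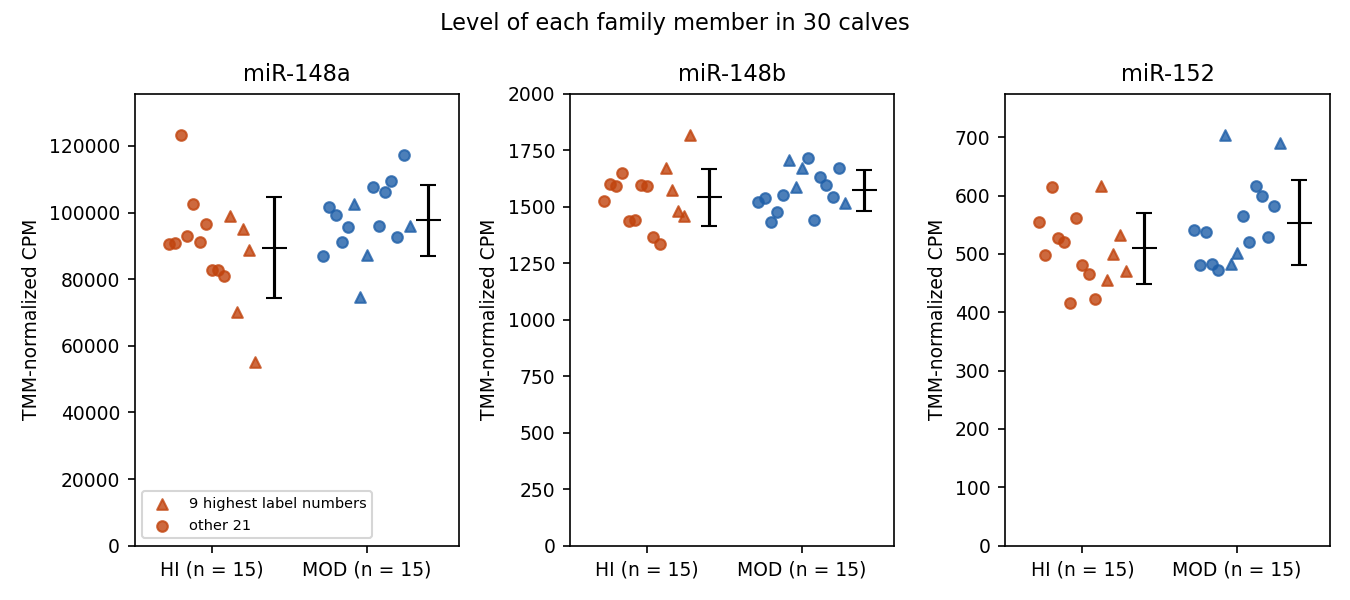
Level of each member in TMM-normalized CPM in the 15 HI and 15 MOD calves, 1 point per calf, with the mean and SD of each diet. Marker shapes separate the 9 libraries with the highest label numbers from the other 21. The diets overlap for every member, and the lowest miR-148a value and the highest miR-148b value belong to the same calf, HI replicate 15.

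At the study's thresholds (FDR < 0.1 and a fold change above 1.5), 0 of the 3 members were called, against 2 of the 419 tested miRNAs (0.477%). At FDR < 0.1 alone the count was again 0 of 3, against 15 of 419 (3.58%), of which 7 were lower in HI (1.67%). At an unadjusted p under 0.05 limma called 0 of 3, against 12.6% of all tested miRNAs in either direction and 5.25% lower in HI. edgeR's quasi-likelihood and exact tests, DESeq2 and limma-voom on recovered reads also gave 0 members at each of these thresholds. Other settings of limma did reach an unadjusted p under 0.05, for 3 of 3 members with upper quartile normalization and for 2 without HI replicate 3. miR-152 also reached it with blocks made from the calf numbers (limma, p = 0.0209). So did miR-152 without HI replicate 11 (limma, p = 0.0384) and without MOD replicate 5 (limma, p = 0.0496). miR-148a reached it without MOD replicate 7 (limma, p = 0.0352). By p the members stood 62nd (miR-152), 64th (miR-148a) and 211th (miR-148b) of 419. Beside a median log2 fold change of 0.02 over all tested miRNAs, 8.83% of them lay below miR-148a, 12.9% below miR-152 and 33.7% below miR-148b.

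The size of the difference moved with the scaling of the libraries. TMM factors averaged 1.02 ± 0.0724 (SD, n = 15) in HI and 0.979 ± 0.0313 (SD, n = 15) in MOD libraries. With total reads as the scale, HI minus MOD (log2) was -0.07 for miR-148a, 0.03 for miR-148b and -0.06 for miR-152. With upper quartile normalization it was -0.24, -0.13 and -0.22, and miR-152 then reached an FDR of 0.0480, still short of the fold change threshold. The median of all 419 miRNAs moved in the same way, from 0.07 with total reads to -0.07 with the upper quartile. A scaling shifts all miRNAs of a library together, so the distance of any miRNA from that median hardly changes by construction. That distance is given here for the 5 scalings as a description only. miR-148a lay at -0.16 to -0.15, miR-152 at -0.14 to -0.13 and miR-148b at -0.06 to -0.04.

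Intervals were narrow enough to bound the diet difference. Over the 12 limma settings, the 95% intervals of the fold, HI over MOD, reached from 0.749 to 1.06 for miR-148a, from 0.852 to 1.11 for miR-148b and from 0.783 to 1.06 for miR-152. All of them stayed within a change of 1.5-fold in either direction.

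**Figure D3:**
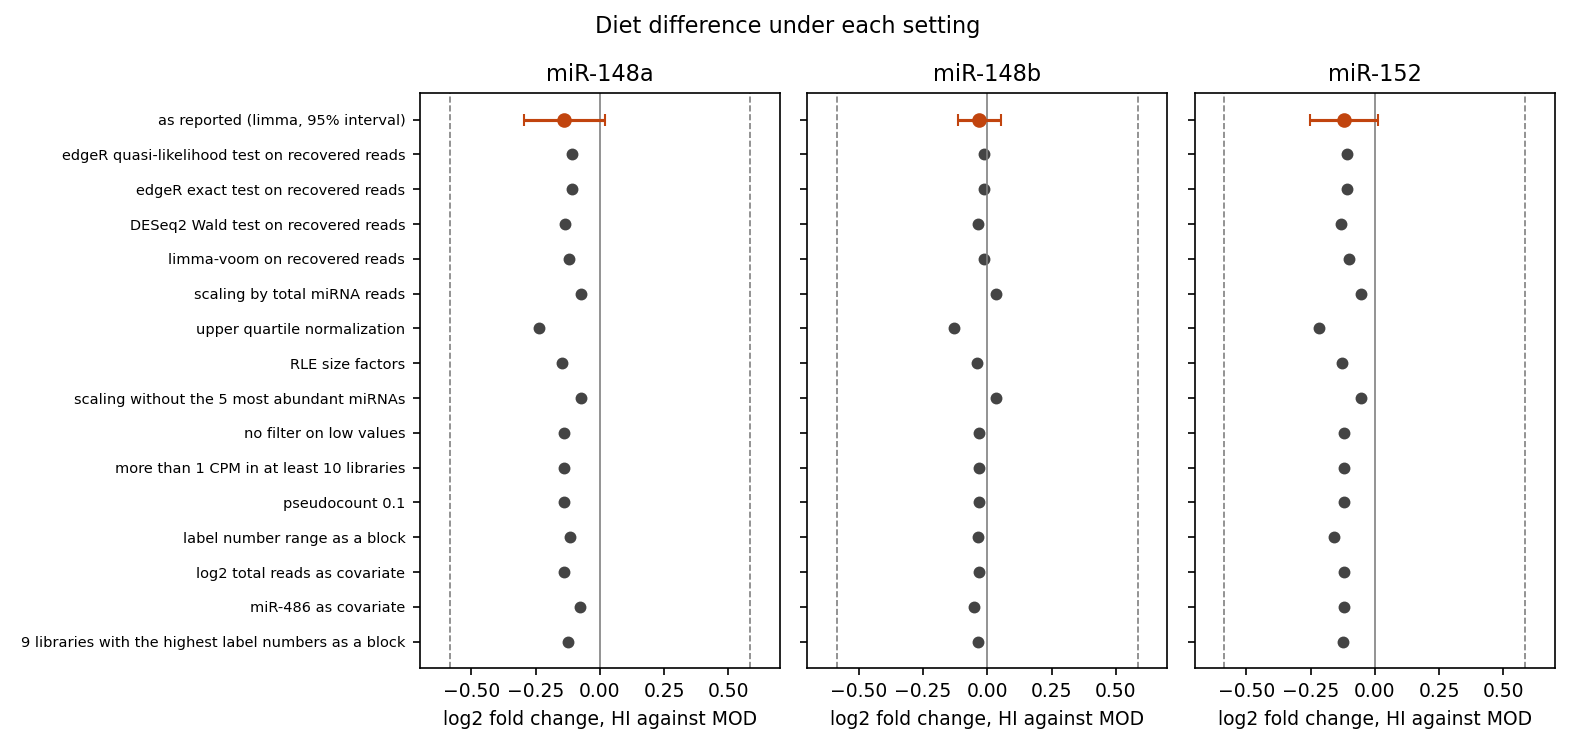
Log2 fold change (HI against MOD) of each member under the reported fit and the alternatives, with the 95% interval drawn for the reported fit only. Values range from -0.24 to -0.07 for miR-148a, from -0.13 to 0.04 for miR-148b and from -0.22 to -0.05 for miR-152.

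Single calves weighed on these values. Without HI replicate 15 the difference for miR-148a was -0.09 (log2), and without HI replicate 3 it was -0.17 (limma, FDR = 0.260). For miR-148b it was -0.05 without HI replicate 15 and -0.02 without HI replicate 10. For miR-152 it ranged from -0.14 without HI replicate 11 to -0.09 without MOD replicate 6. Each of the 30 fits that left out 1 calf was negative for every member, and none reached FDR < 0.1.

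Values within the sets of label numbers stand beside the pooled ones. Among the 21 libraries with lower numbers (10 HI and 11 MOD), HI minus MOD (log2) was -0.11 for miR-148a (exact two-sided permutation test, p = 0.125), -0.04 for miR-148b (p = 0.330, exact) and -0.09 for miR-152 (p = 0.183, exact). Among the 9 with the highest numbers it was -0.17 (exact p = 0.429), -0.02 (exact p = 0.778) and -0.19 (exact p = 0.206). The diet difference was not shown to change between the sets (limma interaction, FDR = 0.934 for miR-148a, 0.955 for miR-148b and 0.875 for miR-152), and 0 of 419 miRNAs passed that test.

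Other cell types of the gland were followed through lists of marker miRNAs, none of which had a member past FDR < 0.1 in limma. All 5 of 5 pituitary endocrine miRNAs (miR-375, miR-7, miR-182, miR-183 and miR-96) had negative values on the TMM scale. Their median was -0.13 (log2), beside 0.02 over all tested miRNAs. Of this list, miR-182, miR-183 and miR-96 are transcribed together. The summed level of the list was 140846 to 237704 CPM in HI and 165290 to 235872 CPM in MOD libraries, with medians of 176443 and 191360 CPM. All 6 of 6 stromal and smooth muscle miRNAs (among them miR-143, miR-145 and miR-214) had positive values on that scale, with a median of 0.16. Their sums were 32239 to 183489 CPM in HI and 33411 to 76274 CPM in MOD libraries, with close medians of 45000 and 44563 CPM. The highest HI sum was that of HI replicate 1, the library with the high miR-143. A scaling shifts all miRNAs of a library together, and whether these signs hold with another scaling was not tested. The red blood cell miRNAs (miR-451, miR-144 and miR-486) were split, with miR-451 at 0.55 and miR-144 at 0.46 (limma, FDR = 0.190 and 0.115) and the far more abundant miR-486 at -0.27 (limma, FDR = 0.274). Their median was 0.46, with sums of 10578 to 24489 CPM in HI and 15557 to 27422 CPM in MOD libraries. The study, which used edgeR, reported miR-451 and miR-144 as higher in HI calves at its thresholds. With miR-486 as a covariate, miR-148a was at -0.08, miR-148b at -0.05 and miR-152 at -0.12. Its direction was opposite to that of miR-451 and miR-144, which were not used as covariates, so this fit does not account for red blood cells. The part of the endocrine, stromal and red blood cells in the family's values was not tested.

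The remaining lists had no member past the test either. Summed levels of the 5 epithelial miRNAs were 16828 to 23495 CPM in HI and 18523 to 25887 CPM in MOD libraries (median log2 fold change -0.00). Those of the 2 endothelial miRNAs were 8998 to 14949 and 10836 to 16172 CPM (-0.03), and those of the 5 white blood cell miRNAs 471 to 803 and 451 to 898 CPM (0.11). Of the neural list 3 of 7 were tested, with sums of 387 to 978 and 413 to 652 CPM (0.21). Of the striated muscle list 2 of 4 were tested, with sums of 5.86 to 85.8 and 7.38 to 30.6 CPM (-0.12).

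Other miRNAs known for the family's best studied targets were followed in a pair of lists. Of 6 miRNAs that target DNA methyltransferases, all tested, 1 passed FDR < 0.1 with a lower level in HI and 0 with a higher one, beside 3.58% of all tested miRNAs at that threshold and 1.67% lower in HI. The median was -0.05 (log2) beside 0.02 over all. The one that passed was miR-29a, which targets the de novo methyltransferases. It averaged 2638 ± 143 CPM (SD, n = 15) in HI and 2914 ± 208 CPM (SD, n = 15) in MOD calves, a difference of -0.14 (SE 0.037; limma, FDR = 0.0365). The related miR-29b and miR-29c had -0.07 and -0.08 (limma, FDR = 0.873 and 0.590).

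Of 11 miRNAs of cholesterol and lipid transport, 10 were tested, 1 passed with a lower level in HI and 0 with a higher one, against the same shares of 3.58% and 1.67% over all, and the median was 0.02. With lists this short, 1 call says little about a list. The one was miR-33a, encoded within the SREBF2 gene and known for repressing ABCA1. It averaged 9.25 ± 1.02 CPM (SD, n = 15) in HI and 11 ± 1.34 CPM (SD, n = 15) in MOD calves, a difference of -0.23 (SE 0.062; limma, FDR = 0.0396). miR-33b, encoded in SREBF1, had -0.14 (limma, FDR = 0.721). The abundant miR-27a-3p and miR-27b had -0.09 and -0.07 (limma, FDR = 0.731 and 0.732). Neither miR-29a nor miR-33a passed the fold change threshold.

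Across calves, miR-148a and miR-152 moved together. Over the 30 libraries, Pearson's r of log2(CPM + 1) was 0.588 (permutation p = 0.000700, adjusted over the 3 pairs p = 0.00210) and Spearman's rho 0.70 (permutation p = 7.00e-05, adjusted p = 0.000210). The relation had the same direction in both sets of label numbers, with r = 0.732 and rho = 0.679 in the 21 libraries (permutation, adjusted p = 0.000630 and 0.00270) and r = 0.730 and rho = 0.917 in the 9 (exact permutation, adjusted p = 0.0617 and 0.00394). Without HI replicates 12 and 15, which lay farthest from the median of miR-148a on the log scale, r was 0.607 and rho 0.648. The values of a library share its depth and its TMM factor. With total reads in place of TMM, rho was 0.661.

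miR-148b and miR-152 were also related. Over 30 libraries r was 0.409 (permutation p = 0.0253, adjusted p = 0.0379) and rho 0.390 (permutation p = 0.0331, adjusted p = 0.0496). In the 21 libraries with lower label numbers r was 0.645 and rho 0.604 (permutation, adjusted p = 0.00217 and 0.00645), whereas in the 9 others r was 0.00030 and rho -0.017 (exact permutation, adjusted p = 0.999 and 0.982). Whether the 2 sets differed in this was not tested. Without HI replicates 15 and 10, the farthest from the median of miR-148b on the log scale, r was 0.462. With total reads in place of TMM, rho was 0.610 (permutation, adjusted p = 0.000855), and without the 5 most abundant miRNAs in the scale it was 0.582.

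For miR-148a and miR-148b no relation was shown over all libraries, and the values depended on single calves. Over 30 libraries r was -0.031 (permutation p = 0.874, adjusted p = 0.874) and rho 0.228 (permutation p = 0.226, adjusted p = 0.226). HI replicate 15 combined the lowest miR-148a (55252 CPM) with the highest miR-148b (1818 CPM). Without it r was 0.334 and rho 0.359 (permutation, adjusted p = 0.0774 and 0.0576), and without HI replicates 12 and 15 r was 0.403 and rho 0.389 (permutation, adjusted p = 0.0334 and 0.0424). In the 21 libraries r was 0.548 and rho 0.497 (permutation, adjusted p = 0.010 and 0.0236). In the 9 they were -0.426 and -0.117 (exact permutation, adjusted p = 0.384 and 0.982).

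**Figure D4:**
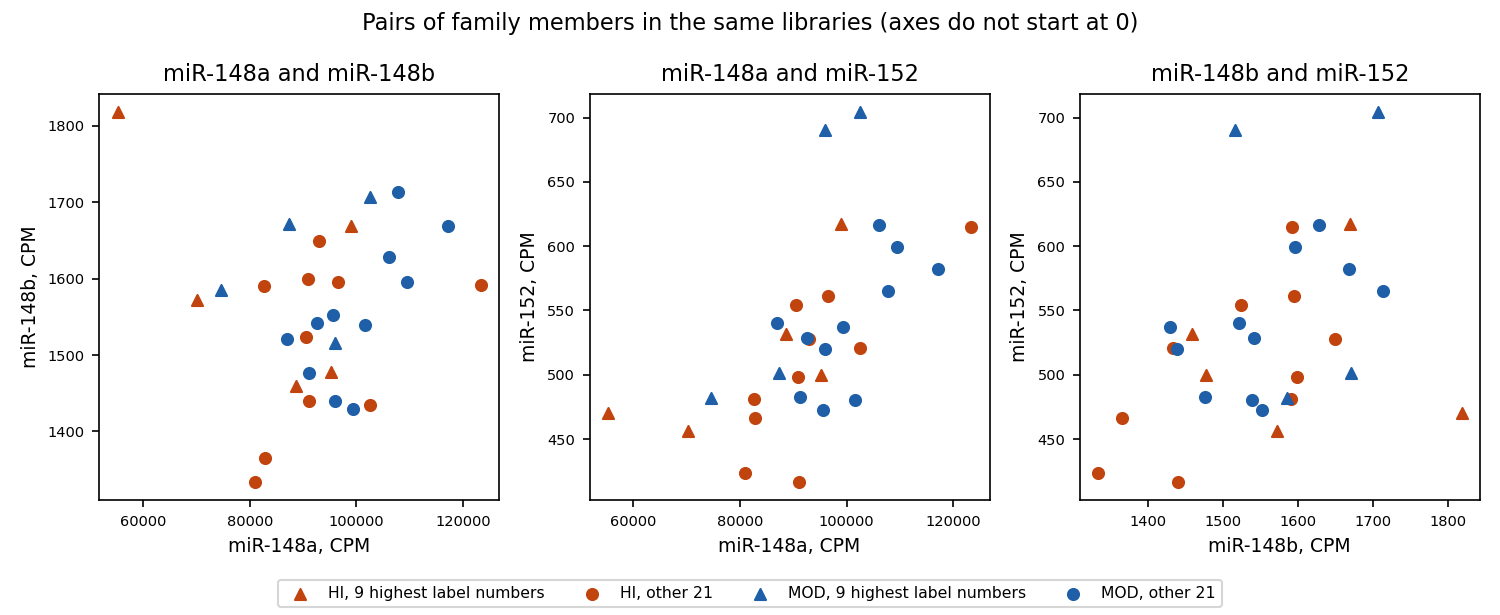
CPM of each pair of members in the same 30 libraries, 1 point per calf. Colours give the diet and shapes the set of label numbers, and the axes do not start at 0. miR-148a and miR-152 rise together (rho = 0.70), and HI replicate 15 stands alone at the upper left of the first panel.

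Ratios within a library do not depend on its scaling. miR-148a exceeded miR-148b 58.5 ± 10.8-fold (SD, n = 15) in HI and 62.2 ± 6.36-fold (SD, n = 15) in MOD calves. HI replicate 15 had the lowest ratio, 30.4, and the next lowest was 44.7 in HI replicate 12. miR-148a exceeded miR-152 176 ± 23.6-fold (SD, n = 15) in HI and 178 ± 20.9-fold (SD, n = 15) in MOD calves. miR-148b exceeded miR-152 3.06 ± 0.355-fold (SD, n = 15) in HI and 2.88 ± 0.332-fold (SD, n = 15) in MOD calves. This ratio had a range from 2.19 (MOD replicate 15) to 3.87 (HI replicate 15). The diets differed in these ratios by less than 1 SD.

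The ratios were also set out by label number. miR-148a over miR-152 was 156 ± 21 (SD) in the 9 libraries with the highest numbers, from 118 to 190, and 186 ± 15.2 (SD) in the other 21, from 161 to 219. miR-148a over miR-148b was 53.6 ± 11.2 and 63.3 ± 5.97 (SD). In CPM, miR-148a had a median of 88734 in the 9 (55252 to 102520) and of 95604 in the 21 (80910 to 123395). Its means were 85417 ± 15629 and 97062 ± 11104 CPM (SD). Those of miR-148b were 1609 ± 118 and 1535 ± 100.4 CPM (SD). miR-152 had means of 550 ± 95.6 and 523 ± 56.7 CPM (SD) but medians in the other order, 501 and 528 CPM. These sets were defined after the values of other miRNAs had been seen, so the values are a description with no test.

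**Figure D5:**
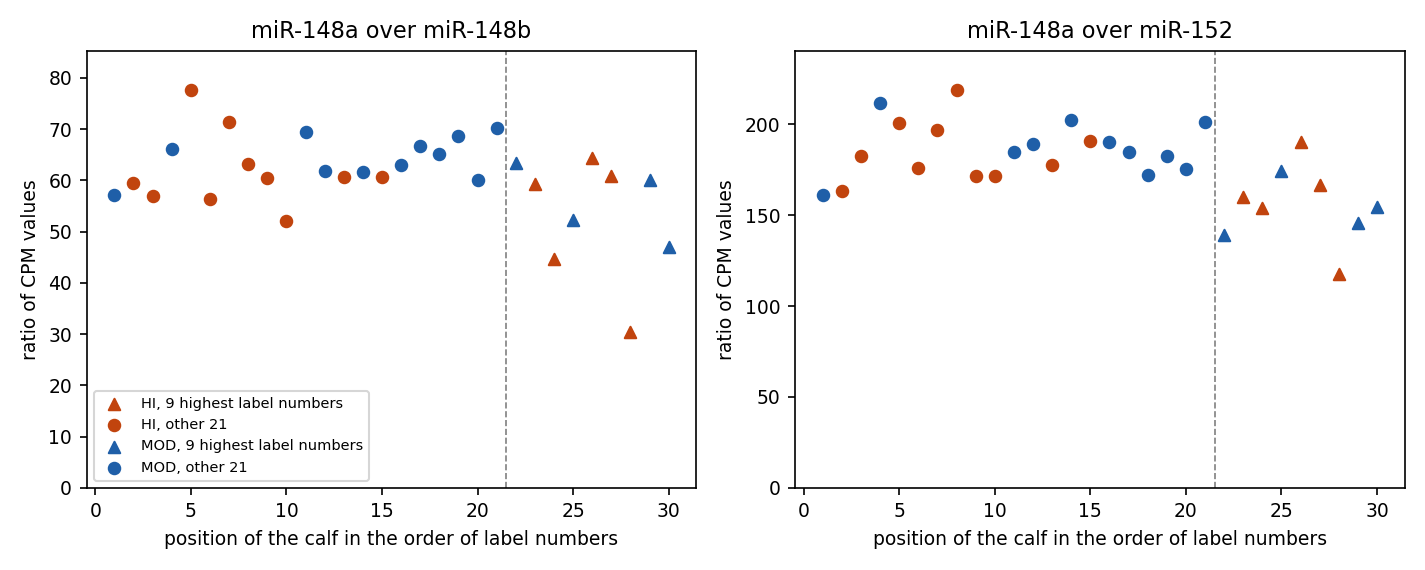
Ratios of CPM values between members, 1 point per calf, in the order of the calf numbers in the labels. Colours give the diet and shapes the set of label numbers. The 9 calves with the highest numbers include the lowest miR-148a over miR-148b ratio, 30.4, and have a mean miR-148a over miR-152 ratio of 156 against 186 in the other 21.

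The miRNAs whose levels followed each member most closely were found by Spearman's rho over the 30 libraries, among 418 others. For miR-148a they were miR-16a (0.70), miR-152 (0.70), miR-191 (0.682), miR-182 (0.672) and miR-26b (0.641). For miR-152 they were miR-148a (0.70), miR-26b (0.635), miR-671 (0.575), miR-16a (0.529) and miR-135a (0.501). miR-16a and miR-26b stood in both lists. For miR-148b the closest was miR-96 (0.631, and 0.748 in the 21 libraries), which is transcribed together with miR-182 and miR-183. Then came miR-182 (0.393), miR-2285aw (0.390), miR-152 (0.390) and miR-2285cm (0.389). In the 21 libraries miR-152 reached 0.604, and with total reads as the scale miR-152 had 0.610 and miR-96 0.665. Of these, miR-26b was lower in HI calves by the test (log2 fold change -0.13; limma, FDR = 0.0396), short of the fold change threshold.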

How the data were processed

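Small RNA of 30 anterior pituitaries (15 HI, 15 MOD) was analysed. Per the labels and the study's methods, the authors used Cutadapt for adapters and read length, discarded reads of other bovine short RNAs, and profiled miRBase miRNAs on ARS-UCD1.2 with miRDeep2. The submitters' processing notes name FastQC 0.11.8 and edgeR 3.5. The deposited values are a normalized signal, TMM-scaled CPM, and not raw counts. Low values are whole multiples of 1 read's worth, which gave the reads back. Values under 200 reads were whole within 0.01 read in at least 94.8% of cases per library, and recomputed TMM factors were within 6.79e-06 of those implied by the deposit. No library copied another (435 pairs, lowest chi-square per degree of freedom 74.6).

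limma 3.58.1 in R 4.3.3 (eBayes with intensity trend) was run on log2(CPM + 1) of 419 miRNAs that passed edgeR's filterByExpr, with Benjamini-Hochberg FDR over all 419 and the study's thresholds, FDR < 0.1 and a fold change above 1.5. Fold changes on this scale understate the change of low miRNAs. edgeR 4.0.16's quasi-likelihood test on recovered reads, rounded, called 4 miRNAs against 2 by limma. edgeR's exact test, DESeq2 1.42.0, limma-voom, 4 other scalings, 2 filters, a pseudocount of 0.1, 4 covariates and 30 fits without 1 calf were alternatives. Correlations used two-sided permutation tests with 100000 resamples, or all orders in sets of 9. Scripts were tested on simulated data. Intervals and floors cover counting error only where they come from reads.

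The family, the marker lists and the 2 lists of related miRNAs were chosen with earlier results of these data known. Named miRNAs are the members, the 5 with the highest mean CPM, the 5 most like each member, list members where a list is discussed, and overlapping miR-148 genes. miR-99b was named because the sets of libraries differ in it.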

Additional observations from a re-analysis of the deposited data

How the results depend on the processing

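No paired analysis was possible because the replicate numbers used here follow accession order within each diet and pair no calves, and the farm, sire and other blocks of the trial are not in the labels. No member was called under any of the 15 alternatives or the 30 fits without 1 calf. miR-148a and miR-152 stayed negative in all 45. miR-148b turned from -0.03 to 0.032 with scaling by total miRNA reads and to 0.035 without the 5 most abundant miRNAs in the scale. With 4 blocks made from the second and the third digit of the calf numbers, miR-152 was at -0.16 (limma, FDR = 0.339). Over all miRNAs, the 2 calls at both thresholds became 4 with edgeR's tests and DESeq2, 1 with the upper quartile and 0 with miR-486 as a covariate. The 15 at FDR < 0.1 became 24 with DESeq2 and 29 with the upper quartile. The causes were not tested.

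The Spearman correlation of miR-148a and miR-148b went from 0.228 to 0.497 in the 21 libraries with lower label numbers, 0.389 without the 2 farthest libraries and -0.117 in the 9 others. That of miR-148b and miR-152 went from 0.390 to -0.017 in the 9, 0.604 in the 21, 0.610 with total reads and 0.582 without the 5 most abundant miRNAs. That of miR-148a and miR-152 kept its sign and its side of the threshold in all 6 alternatives. Correlations without HI replicate 15, and the variation between calves on the scale of total reads, were added after seeing the data. Depth did not limit the members, but miR-148c and miR-148d could not be measured.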

Other observations

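Some miRNAs ran opposite to single members of the family across the 30 libraries, and those of miR-148b were others than those of miR-148a and miR-152. They were named after their values were seen, and the correlations carry no test. Against miR-148a, Spearman's rho was -0.668 for miR-218 and -0.659 for miR-199a-3p, a miRNA of fibroblasts and smooth muscle, and within the 21 libraries with lower label numbers it was -0.744 and -0.558. miR-199c had the same rho as miR-199a-3p, and the levels of that pair were nearly equal (472 CPM each on average), so their reads cannot be told apart. Against miR-152 the lowest value was that of miR-93, a member of the miR-17 group that is high in dividing cells, at -0.679, and -0.368 with total reads as the scale. For miR-148b the lowest was miR-11984 (-0.475), at a mean of 1.62 CPM.

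The summed level of the marker lists was also set beside the members over the 30 libraries, again with no test. The pituitary endocrine sum, most of it miR-375, had a Spearman's rho of -0.146 with miR-148a, 0.0060 with miR-148b and 0.024 with miR-152. The stromal and smooth muscle sum, most of it miR-143, had -0.455, -0.20 and -0.449. The neural sum had -0.620, 0.062 and -0.409. Most of it was miR-128, with a mean of 465 CPM, while the other neural miRNAs averaged at most 32.3 CPM. With miR-148a in the set of 21 libraries, rho was 0.065 for the endocrine, -0.469 for the stromal and -0.553 for the neural sum. A sum does not show its less abundant members. In the endocrine list, miR-182 had a rho of 0.672 with miR-148a and miR-96 one of 0.631 with miR-148b over the 30 libraries. These were picked as the closest miRNAs, and the other list members are not given here. All values of a library share its depth and scale.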
